A study of Homo sapiens with 5 samples.

Results

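The semaphorins, their plexin receptors and the neuropilin co-receptors were examined in NCI-H209 cells that had shared medium with brain endothelial cells. The genes were found by their symbols and not by their values: symbols of semaphorin classes 3 to 7, plexins A to D and neuropilins 1 and 2 gave 31 genes among the 32793 named genes of the series. These were 20 semaphorins, 9 plexins and 2 neuropilins. NCI-H209 is an established human small-cell lung cancer (SCLC) line, and HBMECs are human brain microvascular endothelial cells. The control group was 3 libraries of untreated NCI-H209 cells grown alone, and the co-cultured group was 2 libraries of NCI-H209 cells kept for 24 h below a porous Transwell insert that carried HBMECs. All 5 libraries were of 1 line, for which the labels give RPMI-1640 with fetal bovine serum and no other agent or genetic change. The medium during co-culture was not given in the sources used here. The labels do not say whether the replicates of a group were separate cultures, so p-values measure only the spread between these libraries.

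Semaphorins are secreted or membrane-bound proteins that were first known for steering growing axons, and they also act on blood vessels and tumor cells. They bind plexins, whose intracellular part lowers the activity of R-Ras and Rap proteins and acts on small GTPases, so that a bound cell changes its adhesion and its actin skeleton. Most secreted class 3 semaphorins need a neuropilin beside the plexin, whereas semaphorins of the other classes mostly bind plexins directly. In a neuroendocrine tumor next to endothelium, ligands and receptors of both sides can meet, but only the tumor cells were sequenced here.

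The total RNA was depleted of ribosomal RNA and sequenced as directional libraries, and reads on the annotated strand of each gene were counted. The totals ran from 17317045 to 19157348 counts in control and were 18918787 and 15457071 in the co-cultured libraries, so 3 counts, taken as the floor of detection, correspond to 0.154 to 0.198 CPM, that is counts scaled to a common library size. The share of unmapped reads was 8.13 to 8.48% in control against 16.8% and 15.9% in the co-cultured libraries. Reads on no exon of the counted strand, which take in intronic and opposite-strand reads, were 47.3 to 51.2% against 40.1% and 40.8%. The part of both shares in the results was not tested. Among the control libraries, replicate 1 stood apart: chi-square over its degrees of freedom was 17.9 and 18.1 against replicates 2 and 3, and 6.34 between those. Of 17 neuroendocrine markers, 16 were tested. By the edgeR test described below, 6 of them were higher in the co-cultured group and 2 lower at an adjusted p under 0.05. Over all genes tested 18.4% were higher and 15.0% lower. The median log2 fold change of these markers was 0.07. Their summed level was 3009 to 3570 CPM in control and 4127 and 4093 CPM in the co-cultured libraries. INSM1 lay at 498 to 636 CPM in every library, although CHGA had at most 1 count. The summed level of 16 endothelial markers was 17.8 to 27.8 CPM in control and 23.3 and 24.2 CPM in the co-cultured libraries, with 5 of the 16 at or under 3 counts in every library. CDH5 and PECAM1, which define endothelium, had 4 to 11 and 3 to 14 counts in control against 7 to 11 and 11 to 18 in the co-cultured libraries. The endothelial sum in control was highest in replicate 1, and KDR and TEK had most of their control counts in replicates 1 and 2. Their counts were 37, 27 and 2 for KDR and 31, 24 and 0 for TEK. After co-culture they were 12 and 4 for KDR and 6 and 3 for TEK. Of the 16 endothelial markers 9 were tested, and ESAM and ICAM2 were called higher and none lower. Fewer cells of a type and less RNA per cell cannot be told apart in such bulk samples.

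Of the 31 genes, 28 had enough counts to be tested, with SEMA3E, SEMA3G and PLXNA4 too low. By edgeR's quasi-likelihood test with adjustment over all 20360 genes tested, 8 of the 28 were higher in the co-cultured group at an adjusted p under 0.05 and 3 were lower, where 18.4% of all genes tested were higher and 15.0% lower. The 8 were SEMA3C, SEMA4B, SEMA6A, SEMA7A, PLXNA1, PLXNA3, PLXNB2 and NRP2, and the 3 were SEMA4C, SEMA6C and PLXNB1. SEMA3C passed the filter on low counts only through the co-cultured libraries. It is included in the 8 and in the counts of higher genes below, and adds no support to them. By the study's own criterion for differentially expressed genes (DEGs), taken as a log2 fold change beyond 1 with an unadjusted p under 0.05, SEMA3C, SEMA6A and SEMA7A were upregulated and 0 genes of the family were downregulated, by DESeq2 also 0, against 5.44% and 5.01% of all genes. The 2 groups did not overlap, with higher co-cultured values, for 10 of the 28 tested genes and, with lower values, for 6, where the shares over all genes were 29.4% and 30.0%. The median log2 fold change of the 28 was 0.02, beside -0.03 for all genes tested. Whether these counts differ from the shares of the whole transcriptome was not tested, and what follows concerns which genes moved and not the family as a block.

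Without control replicate 1, 7 of 27 tested genes were higher, all of them among the 8, and 8 were lower, against 26.5% and 23.0% of all genes tested with those 4 libraries. SEMA3C could not be tested there, and SEMA3D, SEMA4G, SEMA5A, SEMA6B and PLXNB3 joined the lower genes. Leaving out control replicate 3 left 5 higher genes, and leaving out either co-cultured library left fewer still. The shares over all genes were not taken for these settings, so it was not tested whether the fall was particular to this family. Where a co-cultured library was left out, the 1 that remained was assumed to vary like the control libraries.

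**Figure D1:**
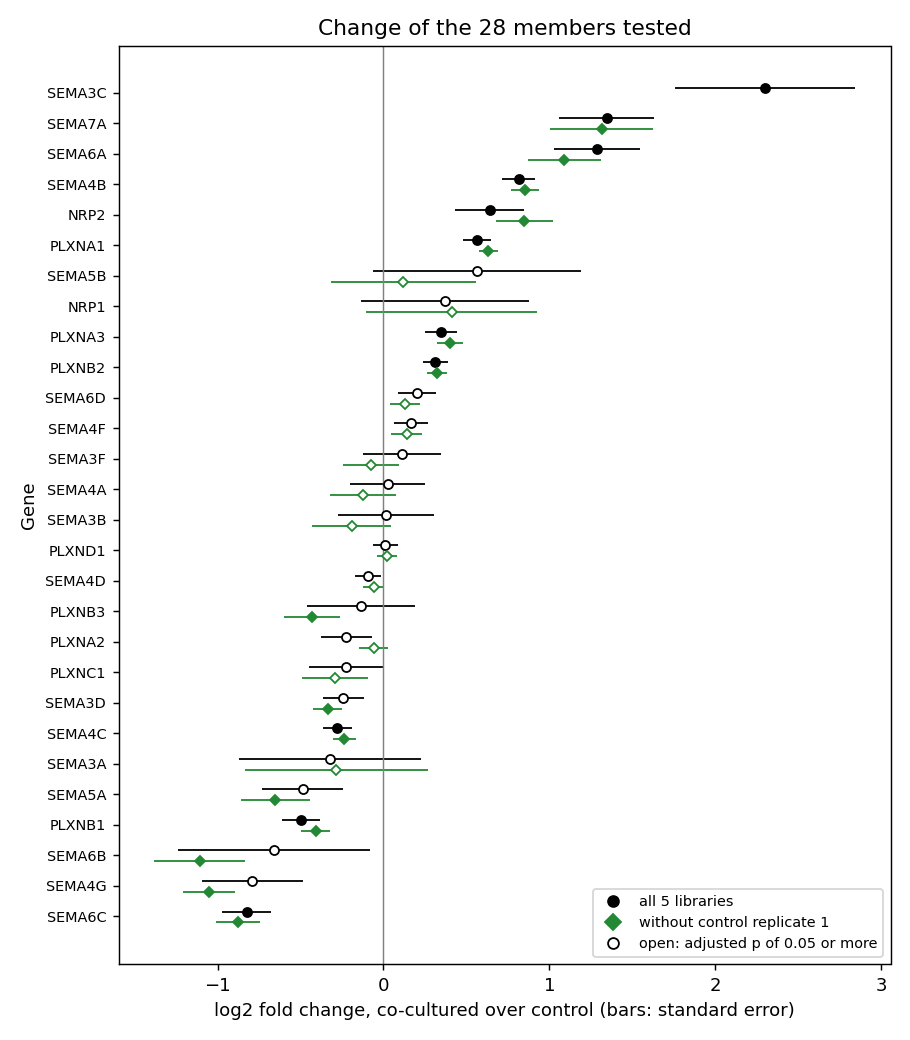
Log2 fold change of the 28 tested genes, co-cultured over control (horizontal axis, bars show the standard error), with all 5 libraries (black circles) and without control replicate 1 (green diamonds), with open symbols for an adjusted p of 0.05 or more. SEMA3C, SEMA7A and SEMA6A lie beyond 1, SEMA6C is lowest at -0.83, and SEMA4G and SEMA6B move to -1.05 and -1.11 without control replicate 1.

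The level of each gene in control is best compared per length, as CPM per kilobase of exon. Plexins were the most abundant members: PLXNB2 stood at 31.1 ± 0.272 (SD, n = 3), PLXND1 at 11.7 ± 0.0905, PLXNA2 at 11.2 ± 2.07 and PLXNA1 at 10.8 ± 0.807 CPM per kilobase. The control values of PLXNA2 spanned those of PLXND1 and PLXNA1. Among the ligands, the class 4 members SEMA4B (9.27 ± 0.351) and SEMA4C (9.26 ± 0.511) led, at levels that did not differ beyond their spread, followed by SEMA4D (4.07 ± 0.153), SEMA4F (3.51 ± 0.202) and the only abundant class 3 ligand, SEMA3D (3.49 ± 0.428). Both neuropilins were scarce, with NRP2 at 0.391 ± 0.0927 and NRP1 at 0.0529 ± 0.0251 CPM per kilobase. In the co-cultured libraries SEMA4B (16.3 ± 2.55, n = 2) and PLXNA1 (15.9 ± 0.0345) ranked next after PLXNB2 (38.6 ± 2.2).

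**Figure D2:**
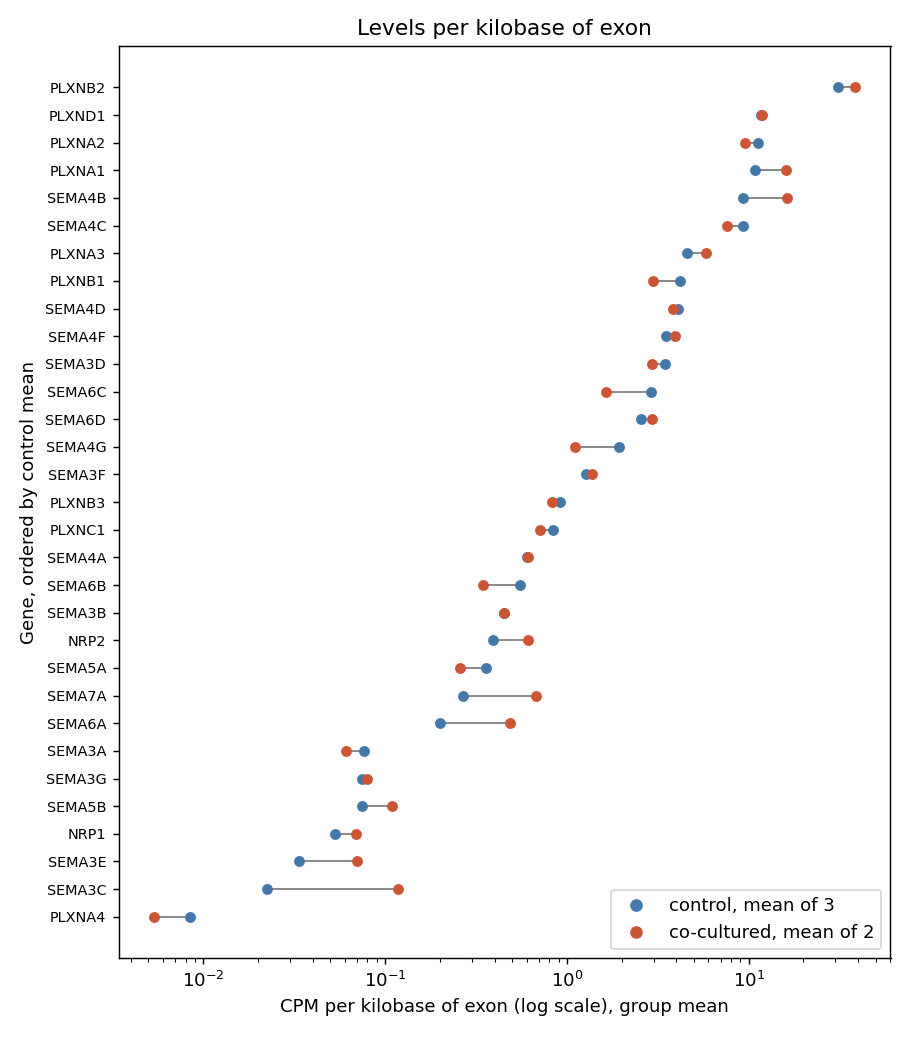
Group means of all 31 genes in CPM per kilobase of exon on a log scale, control (blue, n = 3) joined to co-cultured (red, n = 2), ordered by the control mean. PLXNB2 is highest at 31.1 in control, PLXNA4 is lowest at 0.0085, and SEMA3C, SEMA6A, SEMA7A and SEMA4B show the longest steps to the right among the genes called higher.

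Because 4 called ligands and a called receptor stand at the center of these results, the letters before one of their transcription starts are shown as the reference genome has them (RefSeq, GRCh38.p14). Each run is given 5′ to 3′ on the strand of the gene, without bases that fall in the gene's own exons, and the capitals mark GC boxes, that is GGGCGG or its complement CCGCCC, to which Sp1-type factors bind. SEMA7A lies at chr15:74433959-74434208 on the minus strand, SEMA4B at chr15:90184670-90184917 on the plus strand, SEMA3C at chr7:80922390-80922639 on the minus strand, PLXNA1 at chr3:126982865-126983114 on the plus strand and SEMA6C at chr1:151146665-151146881 on the minus strand. The table holds 2 starts for SEMA7A and SEMA3C and 3 for SEMA4B, of which the most upstream is shown, and 1 for PLXNA1 and SEMA6C.
SEMA7A: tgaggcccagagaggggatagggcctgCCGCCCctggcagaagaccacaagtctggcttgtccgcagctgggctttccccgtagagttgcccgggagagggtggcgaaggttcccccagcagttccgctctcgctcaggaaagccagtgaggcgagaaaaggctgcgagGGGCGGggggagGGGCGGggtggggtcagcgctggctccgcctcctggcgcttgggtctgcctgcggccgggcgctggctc
SEMA4B: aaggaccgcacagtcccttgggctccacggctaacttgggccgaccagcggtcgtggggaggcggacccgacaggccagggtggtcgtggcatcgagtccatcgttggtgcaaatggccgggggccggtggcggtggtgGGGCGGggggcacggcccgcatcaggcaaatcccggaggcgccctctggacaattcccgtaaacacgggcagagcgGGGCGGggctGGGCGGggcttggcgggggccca
SEMA3C: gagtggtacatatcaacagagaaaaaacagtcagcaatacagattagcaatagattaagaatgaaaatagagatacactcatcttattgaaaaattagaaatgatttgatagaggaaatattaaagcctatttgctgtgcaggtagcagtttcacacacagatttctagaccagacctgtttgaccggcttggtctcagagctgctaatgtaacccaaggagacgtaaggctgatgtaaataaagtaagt
PLXNA1: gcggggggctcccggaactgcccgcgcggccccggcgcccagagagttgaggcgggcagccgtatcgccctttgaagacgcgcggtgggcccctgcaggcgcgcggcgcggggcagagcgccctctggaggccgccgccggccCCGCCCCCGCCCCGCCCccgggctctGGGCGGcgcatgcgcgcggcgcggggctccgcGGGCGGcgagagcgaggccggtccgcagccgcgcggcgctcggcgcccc
SEMA6C: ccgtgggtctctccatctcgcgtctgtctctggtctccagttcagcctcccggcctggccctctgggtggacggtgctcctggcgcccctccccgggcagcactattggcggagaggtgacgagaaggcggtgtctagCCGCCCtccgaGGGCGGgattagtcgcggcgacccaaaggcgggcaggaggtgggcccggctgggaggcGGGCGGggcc
PLXNA1 has 5 GC boxes in its 250 bases and a GC content of 84.4%, whereas the window shown for SEMA3C has none and a GC content of 36.4%. The window before the other SEMA3C start, which lies in an exon of the gene and is not shown, has 3 GC boxes and a GC content of 77.6%. A window of 250 bases before a start was found for 27 of the 31 genes, in 48 windows, and not for NRP1, SEMA3A, SEMA6A and SEMA6B. A GC box on either strand was in 62.5% of the 48 windows and in 42.6% of the 35116 windows of all genes. The median GC content was 64.8% in the members' windows and 58% in all windows, and some windows of the same gene overlap. The part of GC content in the GC box shares was not tested. The letters ACGTG or GCGTG, the core of the sites that hypoxia-inducible factors bind, were in 33.3% of the members' windows and in 43.2% of all windows on either strand, and of 10 called members with a window SEMA7A alone had one, before its other start. Such matches describe the letters of these windows and no binding was measured.

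SEMA7A, the only class 7 semaphorin, is a membrane-anchored ligand that binds integrin beta-1 and PLXNC1 and is known for promoting axon growth and cell migration. Its level was 0.957, 1.22 and 0.87 CPM in the control libraries and 2.9 and 2.25 CPM in the co-cultured libraries, so that both co-cultured libraries lay above every control library. The log2 fold change was 1.35 (SE 0.29, edgeR adjusted p = 0.00687), and it was 1.32 without control replicate 1 (adjusted p = 0.00248) and 1.15 without co-cultured replicate 1, where the call was lost (adjusted p = 0.0998). The counts behind it were low, 17 to 22 in control against 53 and 34. The promoter shown above for SEMA7A holds 3 GC boxes. PLXNC1, its plexin, was at 7.44, 9.07 and 8.5 CPM in control against 8.91 and 5.22 CPM, with overlapping groups and a log2 fold change of -0.23 (SE 0.22, adjusted p = 0.466). Reads on the strand opposite to PLXNC1 made up 48.9% of its reads, and its exons share 177 bases with CEP83 on the other strand.

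SEMA4B, a class 4 transmembrane semaphorin that is also expressed in epithelial and neural tissue, was the most abundant gene that rose among the ligands. It measured 67.8, 63.3 and 63.8 CPM in control and 127 and 102 CPM in the co-cultured libraries, all of the former below both of the latter. Its log2 fold change was 0.82 (SE 0.10, edgeR adjusted p = 0.000456), and the call was kept under each of the 12 alternatives of normalization, filter, test, strand and libraries. No plexin is tied to SEMA4B in the list of ligand and receptor pairs used here. Of the other class 4 ligands, SEMA4C, which signals through PLXNB2, was at 60, 53.7 and 57.2 CPM in control and at 48.4 and 45.6 CPM after co-culture. The groups did not overlap and the log2 fold change was -0.28 (SE 0.09, adjusted p = 0.0339). This call was lost without control replicate 3 (adjusted p = 0.0873) and without either co-cultured library (adjusted p = 0.129 and 0.251), by DESeq2 (adjusted p = 0.07), with both strands counted (adjusted p = 0.0715) and with a filter of at least 1 count in any library (adjusted p = 0.0542). SEMA4D, a ligand of PLXNB1 known in the immune system and in tumor angiogenesis, stood at 57.6 ± 2.17 CPM in control and 54 ± 1.04 CPM after co-culture, with a log2 fold change of -0.09 (SE 0.08, adjusted p = 0.39). SEMA4F and SEMA4A gave 0.17 (SE 0.10, adjusted p = 0.236) and 0.03 (SE 0.23, adjusted p = 0.943).

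SEMA4G differed among the control libraries. Its level was 6.01, 12.8 and 11.7 CPM in control and 6.67 and 5.02 CPM after co-culture, so that control replicate 1 lay between the co-cultured libraries and the other control libraries were higher than both. The log2 fold change was -0.79 (SE 0.30, adjusted p = 0.0736) with all libraries and -1.05 (SE 0.16, adjusted p = 5.37e-05) without control replicate 1. With all 5 libraries it was called lower by DESeq2 (adjusted p = 0.0424), with both strands counted (adjusted p = 0.00985) and with a filter of at least 1 count in any library (adjusted p = 0.00037). SEMA4G shares 1170 exon bases with MRPL43 on the other strand, and 57.3% of the reads on it lay on that strand. The opposite-strand reads were 261, 241 and 231 in control and 162 and 138 after co-culture, without the low value of control replicate 1.

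SEMA6A, a transmembrane class 6 semaphorin that binds PLXNA2 and PLXNA4, was at 1.54, 2.21 and 2.82 CPM in control and at 5.68 and 5.02 CPM in the co-cultured libraries. Both co-cultured libraries were higher than all control libraries. The log2 fold change was 1.29 (SE 0.26, edgeR adjusted p = 0.00512), with 1.09 (adjusted p = 0.000682) without control replicate 1 and 1.20 without co-cultured replicate 1, where the call was lost (adjusted p = 0.0661). On SEMA6A the reads of the other strand outnumbered its own, at 64.9%, and they were level, with 116, 118 and 114 counts in control and 109 and 105 after co-culture. The antisense gene SEMA6A-AS1, which shares 268 exon bases with it, had 63, 43 and 48 counts in control against 49 and 47 and a log2 fold change of 0.08 (SE 0.25, adjusted p = 0.832). With both strands counted together the log2 fold change of SEMA6A was 0.55 (adjusted p = 0.0168). Its plexin PLXNA2 was at 187, 138 and 137 CPM in control and 116 and 149 CPM after co-culture, with overlapping groups and a log2 fold change of -0.22 (SE 0.15, adjusted p = 0.295), and PLXNA4 had 2, 1 and 5 counts in control against 2 and 1.

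**Figure D3:**
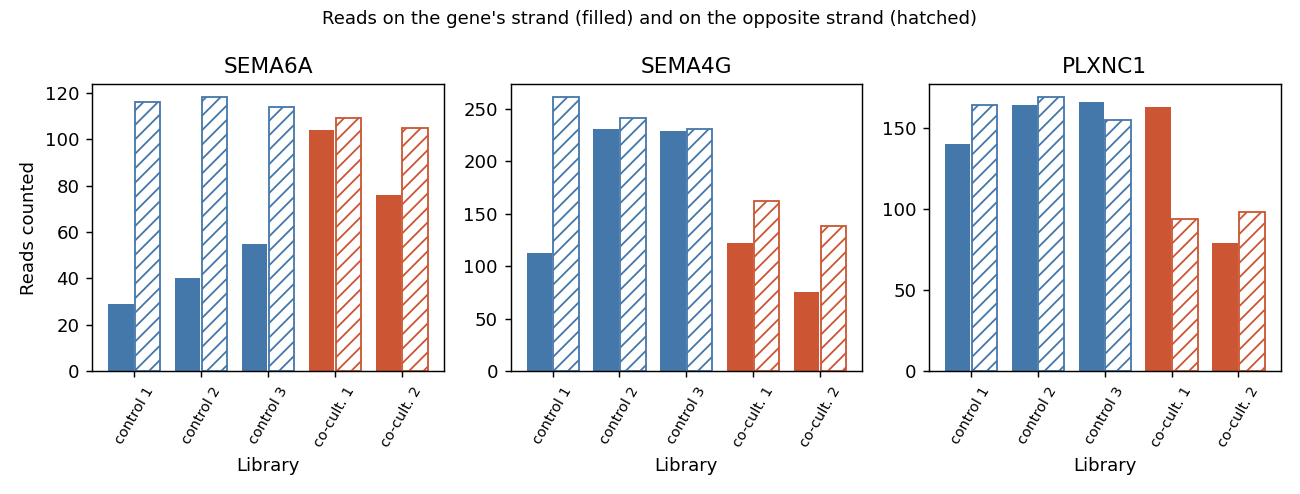
Reads per library on the gene's own strand (filled bars) and on the opposite strand (hatched bars) for SEMA6A, SEMA4G and PLXNC1, in control (blue) and co-cultured (red) libraries. On SEMA6A the own-strand counts go from 29 to 55 in control to 104 and 76 while the opposite-strand counts stay between 105 and 118, and on SEMA4G control replicate 1 is low on the gene's strand only.

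SEMA6C, another transmembrane class 6 semaphorin, fell. It was at 15.6, 19.6 and 15.7 CPM in control and at 9.67 and 9.45 CPM in the co-cultured libraries, which lay below every control library. The log2 fold change was -0.83 (SE 0.15, edgeR adjusted p = 0.00275), and the call was kept under all 12 alternatives. The run of letters shown above for SEMA6C, the only gene among the 5 that fell, holds 3 of the GC boxes. SEMA6D, known for its role in heart development and a ligand of PLXNA1, was at 19.5, 22.3 and 23.8 CPM in control and 25.5 and 24.7 CPM after co-culture, groups that did not overlap, and its log2 fold change was 0.20 (SE 0.11, adjusted p = 0.208). SEMA6B, also a PLXNA4 ligand, had 12, 69 and 55 counts in control against 27 and 24, with control replicate 1 below and the other control libraries above the co-cultured ones. Its log2 fold change was -0.66 (SE 0.58, adjusted p = 0.412) with all libraries and -1.11 (SE 0.28, adjusted p = 0.00351) without control replicate 1.

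SEMA3C, a secreted class 3 ligand of NRP1, NRP2 and PLXND1 that is required for the cardiac outflow tract, was detected at the edge of these libraries. It had 3, 2 and 3 counts in control against 10 and 14 after co-culture, or 0.141 ± 0.0267 CPM against 0.736 ± 0.267 CPM. Every control library was at or under the floor of 3 counts, and the gene passed the filter on low counts only through the co-cultured libraries. The pooled counts of 8 and 24, each over its group's total, give a ratio of 4.85 with an exact 95% interval of 2.11 to 12.5, which covers counting error only, and the fitted log2 fold change of 2.30 (SE 0.54, edgeR adjusted p = 0.011) depends on the prior count. The call was lost without co-cultured replicate 2 (log2 fold change 1.90, adjusted p = 0.143).

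The remaining class 3 ligands were not called with all libraries. SEMA3D, which signals through NRP1 and PLXND1, was at 24.1, 30.3 and 29.9 CPM in control and 23.6 and 24 CPM after co-culture, with control replicate 1 next to the co-cultured libraries. Its log2 fold change was -0.24 (SE 0.12, adjusted p = 0.159), and -0.34 (SE 0.09, adjusted p = 0.00402) without control replicate 1. SEMA3F and SEMA3B, both first studied as tumor suppressors of the lung cancer deletion on chromosome 3, gave log2 fold changes of 0.11 (SE 0.23) and 0.02 (SE 0.29), the latter -0.06 with upper-quartile normalization, and both had their lowest level in control replicate 1. SEMA3F was at 4.36, 7.13 and 6.96 CPM in control and 7.32 and 5.95 CPM after co-culture, and SEMA3B at 1.75, 3.04 and 2.97 CPM and at 2.84 and 2.38 CPM, with overlapping groups. SEMA3A, the classic axon-repelling ligand of NRP1, had 14, 20 and 6 counts in control and 10 and 9 after co-culture, with overlapping groups. SEMA3E, which binds PLXND1 without a neuropilin, had 5, 6 and 5 counts against 12 and 8, groups that did not overlap but that were too low to test, and SEMA3G had 9, 6 and 6 counts against 5 and 8.

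Of the class 5 ligands, which carry thrombospondin repeats, SEMA5A was at 3.3, 4.53 and 5.27 CPM in control and 3.01 and 3.24 CPM after co-culture. Its groups did not overlap, by a narrow margin at control replicate 1, and the log2 fold change was -0.49 (SE 0.25, adjusted p = 0.158), or -0.65 (SE 0.21, adjusted p = 0.0165) without that library. SEMA5B had 3, 12 and 21 counts in control against 23 and 9, with 25.3% of its reads on the opposite strand, and a log2 fold change of 0.56 (SE 0.63, adjusted p = 0.526).

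**Figure D4:**
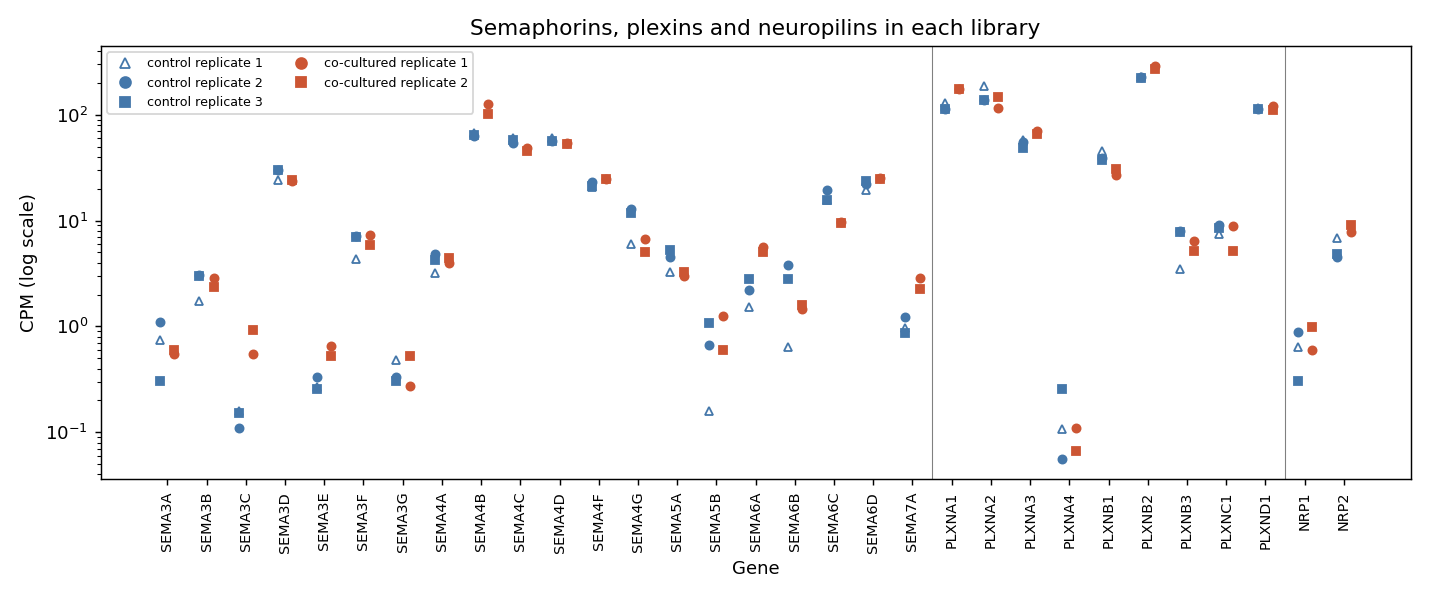
Level of each of the 31 genes in each library in CPM (log scale), with semaphorins, plexins and neuropilins divided by vertical lines, control in blue and co-cultured in red. Control replicate 1 (open triangles) lies apart from the other control libraries for SEMA4G, SEMA5B, SEMA6B and PLXNB3. The co-cultured points lie above all control points for SEMA3C, SEMA3E, SEMA4B, SEMA4F, SEMA6A, SEMA6D, SEMA7A, PLXNA1, PLXNA3, PLXNB2 and NRP2.

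Among the receptors, PLXNA1, which pairs with NRP1 for SEMA3A and also binds class 6 ligands, showed the clearest change. It was at 128, 113 and 113 CPM in control and at 175 and 174 CPM in the co-cultured libraries, with all control libraries lower. The log2 fold change was 0.57 (SE 0.08, edgeR adjusted p = 0.00114), and all 12 alternatives kept the call. PLXNA3, the receptor through which SEMA3F acts with NRP2, was at 57.4, 55.6 and 48.3 CPM in control and 70.9 and 65.8 CPM after co-culture, with no overlap and a log2 fold change of 0.35 (SE 0.09, adjusted p = 0.0205). Its call was lost without control replicate 3 (adjusted p = 0.063) and without co-cultured replicate 1 or 2 (adjusted p = 0.171 and 0.0822).

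The B plexins, which bind class 4 semaphorins and couple to RhoA through PDZ-RhoGEF and LARG, moved in different directions. PLXNB2 was at 228, 225 and 224 CPM in control and 292 and 269 CPM after co-culture, with a log2 fold change of 0.31 (SE 0.08, adjusted p = 0.0126). PLXNB1, the SEMA4D receptor that associates with MET and ERBB2, was at 45.3, 39 and 37.5 CPM in control and 26.8 and 30.8 CPM after co-culture, with a log2 fold change of -0.50 (SE 0.11, adjusted p = 0.00985). Neither gene had overlapping groups. The PLXNB2 call was lost without co-cultured replicate 1 or 2 (adjusted p = 0.148 and 0.0596), and that of PLXNB1 without co-cultured replicate 1 (adjusted p = 0.129). PLXNB3, a SEMA5A receptor, had 65, 144 and 154 counts in control against 118 and 79, with a log2 fold change of -0.14 (SE 0.33, adjusted p = 0.777) and of -0.43 (adjusted p = 0.0442) without control replicate 1. It shares 1432 exon bases on the same strand with SRPK3, whose counts were 166, 174 and 183 in control against 73 and 71. PLXND1, which binds SEMA3E and is best known in endothelium, was at 115, 114 and 114 CPM against 120 and 111 CPM, with overlapping groups, a log2 fold change of 0.01 (SE 0.08, adjusted p = 0.917) and one of -0.07 with upper-quartile normalization.

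NRP2, the neuropilin preferred by SEMA3F and also a co-receptor of VEGF-C, was at 6.91, 4.53 and 4.86 CPM in control and at 7.87 and 9.12 CPM in the co-cultured libraries. The groups did not overlap, with control replicate 1 nearest to the co-cultured libraries. The log2 fold change was 0.64 (SE 0.21, edgeR adjusted p = 0.0421), and it was 0.85 (adjusted p = 0.000658) without control replicate 1. The call was lost without control replicate 2 or 3 (adjusted p = 0.124 and 0.113), without co-cultured replicate 1 or 2 (adjusted p = 0.113 and 0.24) and with upper-quartile normalization (adjusted p = 0.058). NRP1, the neuropilin of SEMA3A and of VEGF-A, had 12, 16 and 6 counts in control against 11 and 15, with overlapping groups and a log2 fold change of 0.37 (SE 0.51, adjusted p = 0.608).

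Ligands and receptors were then set side by side in 34 pairs taken from general knowledge, with earlier results of these data known. Of these pairs, 28 had both genes tested. Both genes were higher in 1 pair, SEMA3C with NRP2, and both lower in none. In that pair SEMA3C passed the filter on low counts only through the co-cultured libraries, and NRP2 lost its call in 6 of 12 alternatives. The calls were opposite in 2 pairs, SEMA4C with PLXNB2 and SEMA6C with PLXNA1, in each of which the ligand fell and the plexin rose. Only 1 of the pair was called in 17 pairs and neither in 8, and pairs that share PLXNA1, PLXNA3, PLXNB2 or NRP2 are not independent of each other. Levels in the co-cultured libraries differed widely within pairs: in CPM per kilobase, SEMA4C was at 7.63 ± 0.327 beside PLXNB2 at 38.6 ± 2.2, SEMA7A at 0.677 ± 0.121 beside PLXNC1 at 0.714 ± 0.264, and SEMA3C at 0.117 ± 0.0427 beside NRP2 at 0.611 ± 0.0634. The HBMECs were not sequenced, so pairs between the tumor cells and the endothelium were not measured.

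Genes of the pathway around these receptors were counted in lists written from general knowledge, with earlier results of these data known. Of 17 co-receptors and other ligands of these receptors, 16 were tested, and 3 of them were higher and 1 lower. Over all genes tested 18.4% were higher and 15.0% lower. The median log2 fold change of the list was 0.11. VEGFA, the ligand that class 3 semaphorins compete with on neuropilins, was at 199, 220 and 245 CPM in control and 721 and 608 CPM after co-culture, a log2 fold change of 1.59 (SE 0.11, edgeR adjusted p = 4.05e-05). ITGA1, a subunit that pairs with integrin beta-1 and so belongs to the SEMA7A receptor, rose from 13.3 ± 0.868 to 19.9 ± 0.35 CPM (log2 fold change 0.58, SE 0.11, adjusted p = 0.00496). ERBB2, which can join PLXNB1, fell from 33.6 ± 2.28 to 24.7 ± 1.69 CPM (log2 fold change -0.44, SE 0.10, adjusted p = 0.0106). On the opposite strand lay 31.3% of its reads, with 360, 296 and 224 counts in control and 185 and 171 after co-culture. The part of these reads in the fall of ERBB2 was not tested. The VEGF receptor genes had most of their control counts in replicates 1 and 2, with 30, 28 and 0 counts for FLT1 and 37, 27 and 2 for KDR against 1 and 1, and 12 and 4, after co-culture, and 55.9% and 35.4% of their reads were on the opposite strand. Without control replicate 1, 8 of this list were higher and 2 lower, where 26.5% of all genes tested in that setting were higher and 23.0% lower. Without control replicate 3 the lower genes numbered 4, and no share over all genes was taken there. Leaving out either co-cultured library left fewer higher and fewer lower genes of the list than all 5 libraries gave.

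Of 45 genes of the intracellular signaling of plexins, 44 were tested, with 21 higher and 3 lower genes, where 18.4% of all genes tested were higher and 15.0% lower. The median of their log2 fold changes was 0.25 beside -0.03 for all genes tested. The list was chosen with earlier results known, so neither contrast is independent of these data. The smallest p-values belonged to FYN, the kinase that phosphorylates A plexins, at 119 ± 5.08 against 218 ± 9.11 CPM (log2 fold change 0.88, SE 0.08, edgeR adjusted p = 9.49e-05), to the GTPase RHOB at 26.9 ± 4.52 against 59.2 ± 2.37 CPM (1.14, SE 0.13, adjusted p = 0.00029), and to GIPC1, which binds the tails of NRP1 and PLXND1, at 30.6 ± 4.14 against 59.8 ± 0.836 CPM (0.96, SE 0.11, adjusted p = 0.000328). The Rnd GTPases RND2 and RND3, which bind the plexin tail, gave 1.42 and 1.14. The 3 lower genes were FARP2 (-0.56) and FARP1 (-0.30), which are exchange factors that bind plexins, and CRMP1 (-0.38), a collapsin response mediator. Without co-cultured replicate 1 or 2 the higher genes numbered 12 and the lower genes 0.

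Of 7 proteases that process semaphorins, 4 were tested. FURIN, which cleaves class 3 semaphorins, had 931, 935 and 894 counts in control and 1845 and 1632 after co-culture, a log2 fold change of 1.09 (SE 0.08, edgeR adjusted p = 5.01e-05). ADAM10, a sheddase, fell from 384 ± 22.7 to 283 ± 6.6 CPM (log2 fold change -0.44, SE 0.08, adjusted p = 0.00377), a call that was lost without co-cultured replicate 2. Of the 16 endothelial markers, 9 were tested, and ESAM, with 3, 4 and 6 counts in control against 21 and 14 and passing the filter only through the co-cultured libraries, and ICAM2, at 7.59 ± 0.541 against 10.4 ± 0.332 CPM, were higher and none was lower by edgeR's test, with 0 also at an unadjusted p under 0.05 and by DESeq2. Among all genes tested the shares were 18.4% higher and 15.0% lower. The part of the endothelial marker counts in the results on the semaphorin genes was not tested.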

How the data were processed

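RNA of NCI-H209 cells, 3 control and 2 co-cultured libraries, was depleted of ribosomal RNA and sequenced with a directional kit. Per the labels, the submitters' processing notes name CASAVA 1.8, STAR 2.6.1b, DESeq2 and GRCh38. The authors deposited raw read counts per gene for each library, as STAR writes them, without normalization. Their table of the comparison holds means, fold changes, statistics and p-values, of which none was used, and only its gene identifiers and names were read. Coordinates and exon lengths came from GENCODE 29 on GRCh38, and promoter sequences from RefSeq (GRCh38.p14).

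Counts on the strand of the directional library held 92.3 to 93.1% of the gene counts. Reads on no exon of that strand, 47.3 to 51.2% in control and 40.1% and 40.8% in the co-cultured libraries, stayed out of library sizes and tests. Genes kept by filterByExpr (20360) were normalized by TMM and compared with the quasi-likelihood test of edgeR 4.0.16 in R 4.3.3, two-sided, with Benjamini-Hochberg adjustment over all of them. CPM values use TMM-scaled library sizes, and each log2 fold change over the square root of its F gave its standard error. The estimated variation between libraries, beyond counting error, came to 10.2% (common dispersion 0.0103). The smallest p of an exact permutation of 3 against 2 libraries is 0.1. The steps were tested on simulated data.

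The gene family and its symbol rule, the pairs and the lists were chosen with earlier results of these data known. The rule for genes described with values of every library named those with an adjusted p under 0.05 and a log2 fold change beyond 0.5, and the partners that the pairs tie to them. Such values were also given for SEMA3D, SEMA3E, SEMA4C, SEMA4G, SEMA6B, PLXNA3, PLXNB1, PLXNB2 and PLXNB3 after they were seen. Of each other list the 3 genes with the smallest p among those called were named. Of the further genes, values were given for markers, overlapping genes, VEGF receptors, Rnd GTPases and the lower genes of the signaling list, chosen after their values were seen. Alternatives were upper-quartile and median-ratio normalization, a filter of 10 counts in every library or of 1 count in any, DESeq2 1.42.0, counts without regard to strand, a replicate block, and each library left out in turn. The results of some genes of these lists are not reported here. Plots were drawn with matplotlib 3.10.9.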

Additional observations from a re-analysis of the deposited data

How the results depend on the processing

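Of 81 values that the alternatives gave for the 7 genes with an adjusted p under 0.05 and a log2 fold change beyond 0.5, 72 kept the call, 9 lost it and 0 reversed, and SEMA4B, SEMA6C and PLXNA1 kept it in all. SEMA3C could be tested in 9 of the 12 alternatives. Whether the replicate numbers pair the libraries was not settled. The correlations of same-numbered deviations were -0.114 and -0.067. With 2 co-cultured libraries their deviations mirror each other, so these correlations cannot decide it. With a replicate block, 5 semaphorin family genes were higher, and among co-receptors 4 were lower. NRP2, PLXNA3, PLXNB2 and SEMA4C were not called with it (adjusted p = 0.105, 0.141, 0.117 and 0.15). Leaving out 1 library at a time gave 3 to 7 higher and 1 to 8 lower family genes, and 0 to 2 downregulated ones at the study's criterion. It gave 1 to 8 higher and 0 to 4 lower co-receptors, 12 to 26 higher and 0 to 4 lower signaling genes, 1 to 2 higher and 0 to 1 lower proteases, and 0 to 2 higher and 0 to 2 lower endothelial markers. With at least 1 count in any library, 6 co-receptors were higher and 5 lower, and 2 endothelial markers were lower, as with both strands counted and with the block. DESeq2 gave 2 lower co-receptors. Upper-quartile normalization, both filters, DESeq2, both strands and the block each gave 1 higher endothelial marker. Among genes without a call, upper-quartile normalization turned PLXND1 to -0.07 and SEMA3B to -0.065. Leaving out 1 library gave ranges through 0 for NRP1 (-0.0071 to 0.73), PLXNC1 (-0.67 to 0.10), PLXND1 (-0.04 to 0.074), SEMA3A (-0.69 to 0.12), SEMA3B (-0.19 to 0.15), SEMA3F (-0.0759 to 0.26) and SEMA5B (-0.0879 to 1.20). The causes were not tested. Shares over all genes were taken only with all 5 libraries and without control replicate 1, so the other counts of called genes have no background beside them. With 2 co-cultured libraries, 1 line and 1 time point, and under 25 counts per library for SEMA3A, SEMA3C, SEMA3E, SEMA3G, SEMA5B, NRP1 and PLXNA4, differences in those 7 genes were not detectable at this depth unless large.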
